A study of Mus musculus with 2 samples.

Results

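The 10 miRNA genes Mir338, Mir137, Mir128-1, Mir128-2, Mir138-1, Mir138-2, Mir153, Mir9-1, Mir9-2 and Mir9-3, known from neurons and glia, were followed in microRNA-seq of newborn mouse bladder. They were taken by gene symbol, mapped to the Ensembl gene numbers of the count tables, and 9 of the 10 have a row among 1973 miRNA genes. Mir9-1 has none under its own number. The samples are 2 bladders of B6NCrl mice at postnatal day 0, from pup 2 and pup 1 of the same pregnancy. They form 1 group, with no treatment, mutant or other tissue beside it, and sex was not collected. The labels give both pups the same donor entry. RNA under 30 nucleotides was sequenced, and a level is the sense-strand count of a gene in CPM, scaled to the sense-strand counts of all genes. Pup 2 had 3636650 such counts and pup 1 had 7460621, so the library of pup 1 was 2.05 times as deep. For a count of 0 the limit was set at 3 counts, which is 0.825 CPM (pup 2) or 0.402 CPM (pup 1). The two-sided 95% Poisson intervals given with the levels use a wider bound, which at 0 counts reaches 1.01 CPM (pup 2) or 0.494 CPM (pup 1). Intervals and limits are computed from the counts of 1 library and cover counting error only. No molecular identifiers are recorded for the reads, so repeated copies of a molecule count separately and the intervals can be too narrow. Errors are SDs over the 2 pups, and any p compares the libraries of these littermates, not conditions.

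MicroRNAs are cut from hairpin precursors as mature strands of about the length of these reads. A mature strand guides repression of messenger RNAs that pair with its seed, the bases at positions 2 to 8. The bladder wall is supplied by autonomic and sensory nerve fibres wrapped by Schwann cells, while the cell bodies of most of these neurons lie in ganglia outside the wall. In the nervous system miR-338 acts in the maturation of myelinating glia, miR-137 in the maturation of neurons, miR-128 in the control of neuronal excitability and miR-138 in the size of dendritic spines. miR-153 acts on the release of neurotransmitter, and miR-9 acts in neural progenitors and neurons. In whole tissue, fewer cells of a type and less RNA per cell cannot be told apart.

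The strands best known for each gene are shown with the seed in capitals, 5′ to 3′, because identical strands decide which members the counts can separate. The sequences are from RefSeq on GRCm38.p6, which holds all 10 members. The count tables do not say which arm of a hairpin a read came from.
miR-338-3p: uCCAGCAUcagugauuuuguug
miR-137-3p: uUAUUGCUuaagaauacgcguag
miR-128-3p: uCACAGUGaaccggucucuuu
miR-138-5p: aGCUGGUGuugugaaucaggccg
miR-153-3p: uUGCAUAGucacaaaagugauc
miR-9-5p: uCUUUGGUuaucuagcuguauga
The 6 seeds differ from each other. Among 1738 mature entries of RefSeq, no gene outside the members has any of these seeds at positions 2 to 8. The strands of miR-338, miR-137 and miR-153 lie in 1 hairpin each. That of miR-128-3p is whole in both Mir128 hairpins, that of miR-138-5p in both Mir138 hairpins, and those of miR-9-5p and miR-9-3p in all 3 Mir9 hairpins.

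The copies are shown next as whole hairpins, with the longest run common to all copies of a gene in capitals, since a read that falls inside that run matches each copy equally.
Mir128-1: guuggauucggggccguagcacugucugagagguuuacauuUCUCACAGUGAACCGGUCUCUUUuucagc
Mir128-2: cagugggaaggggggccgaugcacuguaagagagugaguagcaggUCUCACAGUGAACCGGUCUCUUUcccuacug
Mir138-1: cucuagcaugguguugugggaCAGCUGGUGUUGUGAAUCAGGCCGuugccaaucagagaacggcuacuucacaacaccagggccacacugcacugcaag
Mir138-2: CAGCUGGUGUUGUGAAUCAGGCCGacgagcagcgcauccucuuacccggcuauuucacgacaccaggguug
Mir9-1: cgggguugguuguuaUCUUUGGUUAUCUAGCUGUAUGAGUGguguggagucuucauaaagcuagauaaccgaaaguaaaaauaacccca
Mir9-2: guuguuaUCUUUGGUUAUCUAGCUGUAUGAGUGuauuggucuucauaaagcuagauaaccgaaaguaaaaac
Mir9-3: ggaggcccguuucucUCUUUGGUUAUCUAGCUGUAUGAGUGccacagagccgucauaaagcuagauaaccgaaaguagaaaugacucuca
The run is 23 bases in Mir128, 24 bases in Mir138 and 26 bases in Mir9. Mir9-1 and Mir9-2 share 33 bases with each other. The Mir138 run and the run of 33 bases start at the first annotated base of Mir138-2 and of Mir9-2. Bases outside the annotated hairpins were not compared, so these runs can be longer. Reads that matched several places were 24.8% of all reads in pup 2 and 22.7% in pup 1 and stand on a line of their own, outside the genes. Counts of these copies are therefore counts of the reads that could be told apart, and can be too low by an amount that was not measured. Counted from the first base of the mature strand, the first difference downstream is U22C between Mir128-1 and Mir128-2, and U24A between Mir138-1 and Mir138-2. A read of either strand that runs 1 templated base past the annotated 3′ end can so be placed. Whether that base was templated in the counted reads cannot be seen from counts. For miR-9-5p the first downstream difference is G27U between Mir9-1 and Mir9-2, 4 bases past the annotated end. Mir9-1 and Mir9-3 differ nearer the strands, 1 base before the 5′ end of miR-9-5p and, as A24G, 2 bases past the end of miR-9-3p. The other arms of Mir128 and Mir138 are separable, with 7 edits between miR-128-1-5p and miR-128-2-5p and 5 edits between miR-138-1-3p and miR-138-2-3p.

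Mir338 was the most abundant member, followed by Mir137, and the levels of all measured members were low in a tissue whose leading miRNA is that of smooth muscle. Mir338 (ENSMUSG00000065600.1) lies at chr11:120014765-120014862 of GRCm38, the assembly that mm10 names, on the minus strand, in an intron of Aatk, a kinase gene of brain. It had 234 counts or 64.3 CPM in pup 2 (95% interval 56.4 to 73.1) and 427 counts or 57.2 CPM in pup 1 (51.9 to 62.9), a mean of 60.8 ± 5.03 CPM (SD, n = 2). Mir338 ranked 178 among all genes. The intervals of the pups overlap.

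Mir137 (ENSMUSG00000065569.1) lies at chr3:118433857-118433929 on the plus strand, in an exon of the non-coding gene Gm26871. It had 136 counts or 37.4 CPM in pup 2 (31.4 to 44.2) and 316 counts or 42.4 CPM in pup 1 (37.8 to 47.3), with a mean of 39.9 ± 3.51 CPM (SD, n = 2) and rank 192. Both pups had less Mir137 than either had Mir338. The ratio of Mir338 to Mir137 was 1.72 in pup 2 and 1.35 in pup 1.

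Mir153 (ENSMUSG00000065538.1), at chr12:117250817-117250885 on the plus strand, sits in an intron of Ptprn2, which encodes a protein of dense-core secretory vesicles. Only 17 counts or 4.67 CPM were found in pup 2 (2.72 to 7.48) and 21 counts or 2.81 CPM in pup 1 (1.74 to 4.30). The mean was 3.74 ± 1.32 CPM (SD, n = 2), rank 282, and 17.0-fold below Mir338 on the mean of the pups' ratios. Mir338, Mir137 and Mir153 have no copy, share at most 13 bases with a hairpin of another locus, and together reached 106 CPM (pup 2) and 102 CPM (pup 1).

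The Mir128 copies were far apart. Mir128-1 (ENSMUSG00000065520.1; chr1:128202361-128202430, plus strand, in an intron of R3hdm1) had 106 counts or 29.1 CPM in pup 2 (23.9 to 35.3) and 164 counts or 22.0 CPM in pup 1 (18.7 to 25.6). Mir128-2 (ENSMUSG00000065441.1; chr9:112118636-112118711, minus strand, in an intron of Arpp21, a gene of neurons) had 5 counts in each library, which is 1.37 CPM for pup 2 (0.446 to 3.21) and 0.670 CPM for pup 1 (0.218 to 1.56). Mir128-1 exceeded Mir128-2 by 21.2-fold in pup 2 and 32.8-fold in pup 1. This ratio is of separable reads only, as reads of the shared strand that end within the run belong to neither. Base 22 is U in Mir128-1 and C in Mir128-2. A read of either copy with an untemplated U there would match Mir128-1, which could raise the ratio and cannot be seen from counts. How far the ratio follows the transcription of the 2 genes was not tested.

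The Mir138 copies lay close together. Mir138-2 (ENSMUSG00000065512.2; chr8:94324311-94324381, plus strand, in an exon of the lincRNA gene C78859) had 80 counts or 22.0 CPM in pup 2 (17.4 to 27.4) and 160 counts or 21.4 CPM in pup 1 (18.3 to 25.04). Mir138-1 (ENSMUSG00000065414.1; chr9:122682876-122682974, plus strand, in an exon of the transcribed pseudogene Gm47135) had 52 counts or 14.3 CPM in pup 2 (10.7 to 18.8) and 116 counts or 15.5 CPM in pup 1 (12.8 to 18.6). Mir138-2 was the higher copy in both pups, by 1.54-fold in pup 2 and 1.38-fold in pup 1. As for Mir128, the ratio is of separable reads only, and how far it follows the transcription of the 2 genes was not tested. The counting intervals of the copies overlap in pup 2 and only just in pup 1.

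No read was assigned to Mir9. Mir9-2 (ENSMUSG00000065424.1; chr13:83738814-83738885, plus strand, in an exon of the lincRNA gene C130071C03Rik) and Mir9-3 (ENSMUSG00000093238.1; chr7:79505264-79505353, plus strand, in an intron of Mir9-3hg) had 0 counts on both strands in both libraries. Mir9-1 lies at chr3:88215598-88215686 on the plus strand, in an intron of the lincRNA gene Gm3764. The tables hold Gm25641, a gene on the opposite strand of that locus, and it too had 0 counts on both of its strands in both pups. Both mature strands of miR-9 are identical in the 3 hairpins, so these zeros do not show that miR-9 was absent from the bladder. The same limit holds wherever every annotated strand recurs at another locus. Of 858 genes of the tables with a mature sequence in RefSeq, 32 have all their strands whole in a hairpin of another locus, and 24 of those 32 (75.0%) were at 0 in both libraries. Of the 777 genes with no such strand 36.6% were at 0, and of the 49 genes with some such strands, as in Mir128 and Mir138, 12.2%. Mir9-2 and Mir9-3 are themselves among the 32 and the 24 genes. How far shared strands account for zeros was not tested.

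**Figure D1:**
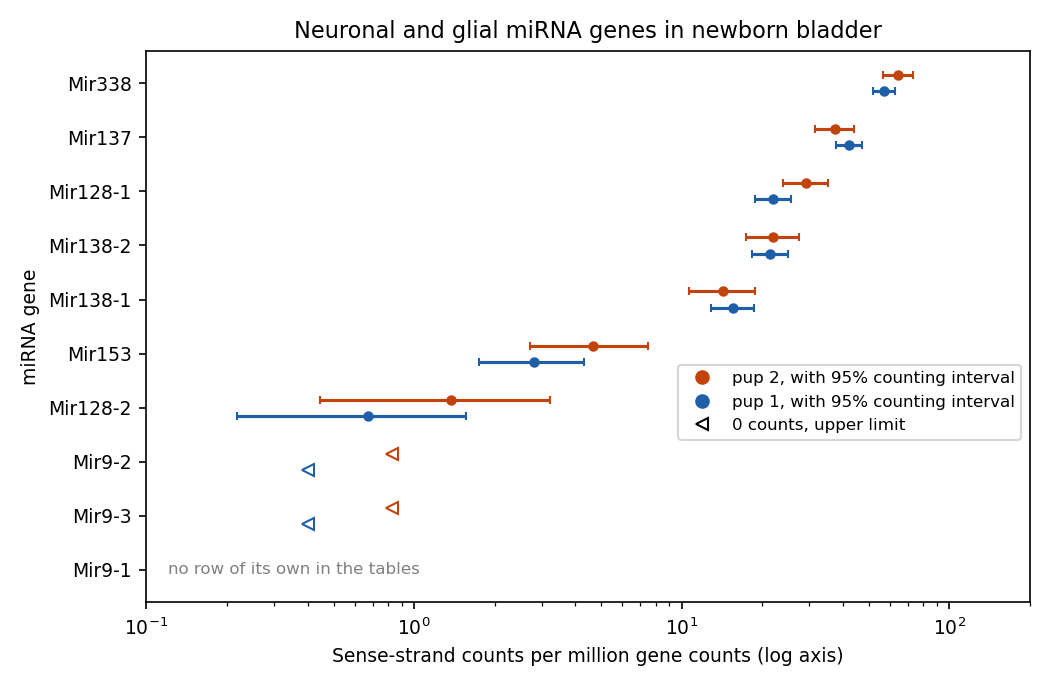
Level of each member on a log axis in sense-strand CPM, pup 2 above pup 1, with exact 95% Poisson intervals. Mir338 and Mir137 lead in both pups, and open triangles mark the limits of 3 counts, 0.825 CPM (pup 2) and 0.402 CPM (pup 1), for Mir9-2 and Mir9-3.

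**Figure D2:**
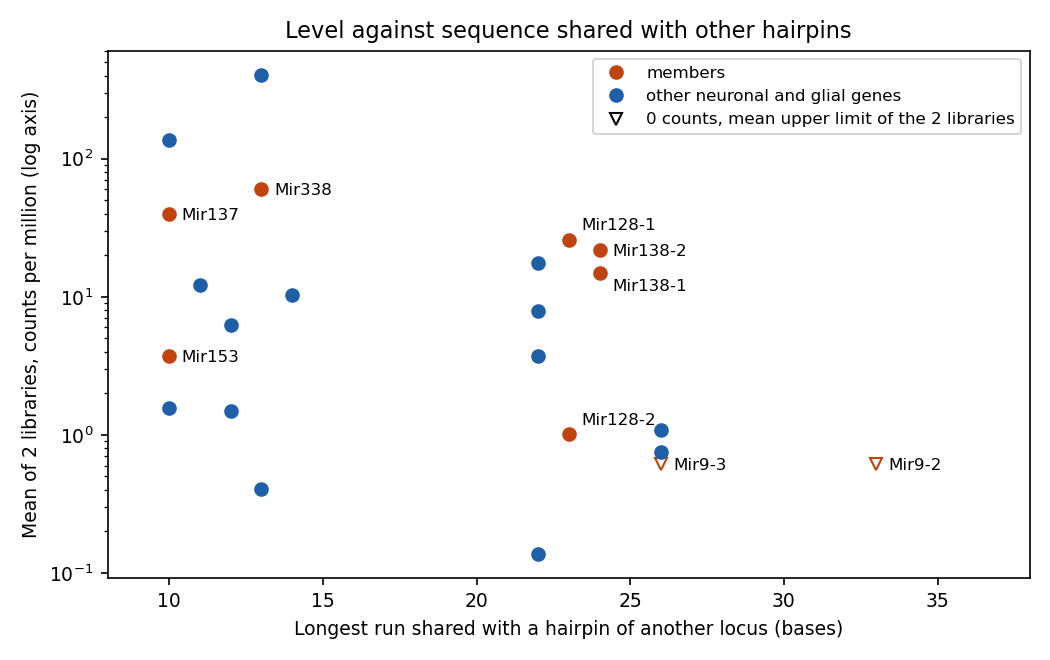
Mean level of the 2 libraries on a log axis against the longest run of bases that a gene's hairpin shares with a hairpin of another locus, for the members and for 14 other neuronal and glial genes with a hairpin in RefSeq. Mir338, Mir137 and Mir153 share at most 13 bases, the Mir128 and Mir138 copies 23 and 24, and Mir9-3 and Mir9-2, drawn at the limit that 0 counts allow, 26 and 33.

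In order of level the members ran Mir338, Mir137, Mir128-1, Mir138-2, Mir138-1, Mir153 and Mir128-2. For 5 of the 6 neighbouring pairs the lower pup of the higher gene lay above the higher pup of the lower gene. The exception was Mir128-1 and Mir138-2, whose pups overlapped, at a lowest 21.98 CPM for Mir128-1 and a highest 22.00 CPM for Mir138-2. Reads of mature strands are not spread over the length of a gene, and the order was the same in CPM per base of the annotated gene. Mir338 made up 37.1% of the members' sum in pup 2 and 35.3% in pup 1.

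Summed, the members reached 173 CPM (pup 2) and 162 CPM (pup 1), or 168 ± 7.91 CPM (SD, n = 2). Mir143 of smooth muscle, by far the leading gene of these bladders, was 8633-fold above Mir338 on the means. Detection, set at 1 CPM and 3 counts in both libraries, was met by 6 of the 9 measured members, against 17.0% of all genes (335 of 1973). Mir128-2 fell short through pup 1, and Mir9-2 and Mir9-3 had no count. The median member was at 14.9 CPM, while the median of all genes was 0, as 1305 genes had no count in either library.

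**Figure D3:**
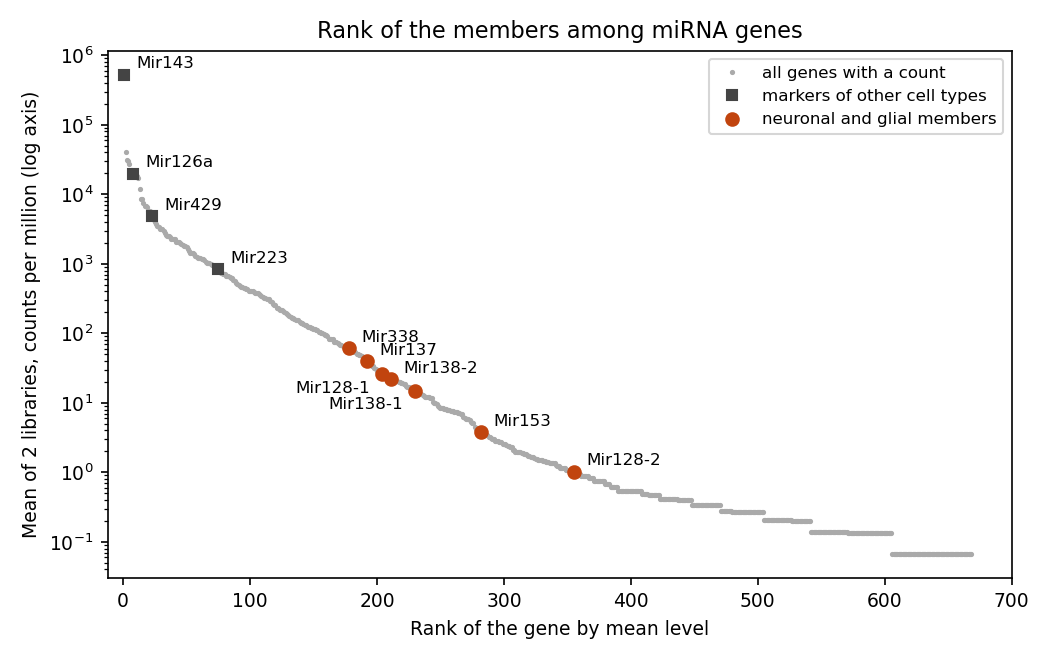
Mean level of the 2 libraries on a log axis against rank for every gene with a count, with the members and 4 marker genes of other cell types labelled. The members with counts lie between rank 178 for Mir338 and rank 355 for Mir128-2, below Mir143 of smooth muscle, Mir126a of endothelium, Mir429 of epithelium and Mir223 of myeloid cells. Each of these 4 is the highest or only gene of its marker list. In the same lists Mir486 (rank 181) and Mir150 (rank 199) of blood cells and Mir145b of smooth muscle (rank 396) ranked below Mir338, and the rest ranked above it.

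Other genes linked to neurons or glia gave a similar picture of low levels with some members at 0. Of 19 such genes 12 were detected, against 17.0% of all genes (335 of 1973). The median of the 19 was 3.73 CPM, and together they reached 718 CPM (pup 2) and 781 CPM (pup 1). Most of that sum came from genes that other cells also use. Mir134, of the imprinted cluster on chromosome 12 and known from dendrites, had 362 CPM in pup 2 and 449 CPM in pup 1, and Mir132, induced by neuronal activity and also found in vessels, had 137 CPM in pup 2 and 135 CPM in pup 1. Mir218-2, a miRNA of motor neurons found in other tissues too, had 19.0 CPM in pup 2 and 16.2 CPM in pup 1. Its hairpin shares 22 bases with that of Mir218-1, so the counts of both can be too low. Among the 12 genes listed as neuronal, Mir598 led with 98.7 CPM in pup 2 and 91.5 CPM in pup 1. It was followed by Mir383, with 56.4 CPM in pup 2 and 43.2 CPM in pup 1, and by Mir346, with 8.52 CPM in pup 2 and 11.9 CPM in pup 1. Mir598 stood above Mir338 in both pups, and Mir383 lay between Mir338 and Mir137 in both. Of the 13 tested genes of this list, Mir383 and Mir134 passed the exact binomial test, against 117 of all 362 tested genes (32.3%). Mir383 was higher in pup 2 (log2 ratio 0.41, adjusted p of the exact binomial test 0.00690). Mir134 was lower in pup 2 (-0.28, adjusted p of the same test 5.67e-09). With edgeR's exact test and common dispersion neither was called, against 5 of the 362 genes (1.38%).

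Mir219a-1 and Mir219a-2, which act beside miR-338 in oligodendrocytes, were far below Mir338. Mir219a-1 had 14 counts in pup 2 and 27 counts in pup 1, or 3.73 ± 0.163 CPM (SD, n = 2), and Mir219a-2 had 1 count in pup 2 and 0 in pup 1. These share 22 bases, so both can be too low. Mir124a-1, Mir124a-2 and Mir124a-3, numbered copies of a hallmark miRNA of neurons, had 0 counts in both pups. Their sequences were not compared here, so whether reads shared by these copies were left out is not known. The zeros therefore do not show that this miRNA was absent.

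Between the littermates no member passed the test of a difference. Ratios were tested per gene with a two-sided exact binomial test on the counts, with a Benjamini-Hochberg adjustment. It covered the 362 genes that reached 10 counts over both libraries, and 117 of them (32.3%) differed. With TMM scaling, used here, 69 of the 117 were higher and 48 lower in pup 2. Scaled by total counts, 123 genes differed, 59 of them higher and 64 lower in pup 2, and with DESeq2 size factors 125 genes differed, 56 higher and 69 lower. Of the 7 tested members 0 differed under any of these scalings. Among genes with summed counts in the members' range, 10 to 661, 17 of 185 (9.19%) differed. At an unadjusted p under 0.05 of the exact binomial test there was 1 of the 7 members, Mir128-1, against 142 of all 362 genes and 30 of the 185 in the members' range. With edgeR's exact test and the common dispersion of these libraries, 0 members reached that unadjusted level, against 17 of the 362 genes and 14 of the 185. That test called 5 of the 362 genes (1.38%) after adjustment. Its dispersion was estimated from the same 2 libraries taken as 1 group, so differences between the pups raise it.

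Mir128-1 came nearest, with a log2 ratio of pup 2 over pup 1 of 0.43 (counting SE 0.179, 95% interval 0.06 to 0.79, adjusted p of the exact binomial test 0.0575). Mir338 had a log2 ratio of 0.19 (interval -0.04 to 0.43) and Mir137 of -0.16 (-0.46 to 0.14), with adjusted p of the exact test of 0.230 and 0.504. The intervals were wider for Mir153 (-0.26 to 1.75) and Mir128-2 (-1.06 to 3.18), the members with the fewest counts. Mir138-1 and Mir138-2 had log2 ratios of -0.10 and 0.06. The median log2 ratio was 0.19 over the 7 members and 0.03 over all tested genes, with 5 of the 7 members and 198 of all 362 tested genes above 0.

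**Figure D4:**
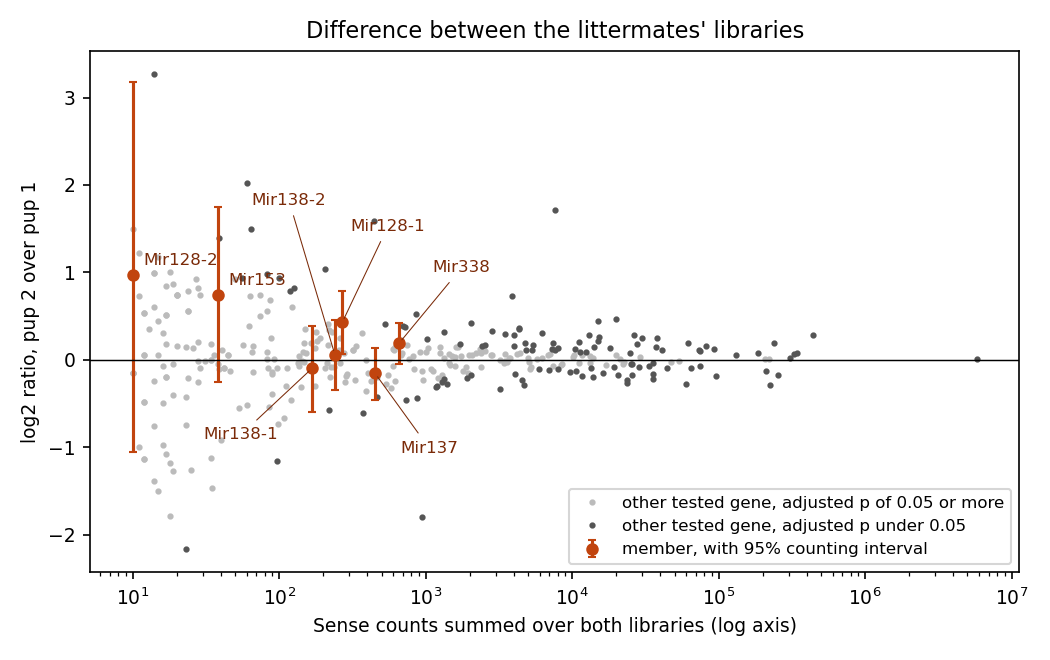
Log2 ratio of pup 2 over pup 1 against the summed sense counts on a log axis, for the 362 tested genes, with 95% counting intervals for the 7 tested members. The intervals of 6 members include 0, and that of Mir128-1 runs from 0.06 to 0.79.

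Markers of some other cells differed between the libraries, and their part in the members' values was not tested. The 6 blood cell genes reached 2357 CPM (pup 2) and 1201 CPM (pup 1) together, a sum led by Mir223 of myeloid cells with 1274 CPM in pup 2 and 396 CPM in pup 1. Of those 6 genes Mir223, Mir144 and Mir451a were higher in pup 2 by the exact binomial test, and Mir155, Mir486 and Mir150 did not pass it. Of all 362 tested genes that test called 117 (32.3%). With edgeR's exact test and common dispersion, Mir223 alone of the 6 was called. Mir375 of endocrine cells had 72.3 CPM in pup 2 and 24.4 CPM in pup 1, and Mir122 of hepatocytes had 31.6 CPM in pup 2 and 112 CPM in pup 1. Smooth muscle and epithelium, the defining tissues of a bladder, had all but 1 of their 9 listed markers detected, the exception being Mir145b. Of all genes 17.0% (335 of 1973) were detected. Some of these markers also passed the exact binomial test, namely Mir143 (log2 ratio of pup 2 over pup 1 0.015), Mir145a (0.058), Mir205 (0.14) and Mir200c (-0.18). Mir429, Mir200b, Mir141 and Mir200a did not pass it, and edgeR's exact test with common dispersion called no smooth muscle or epithelial marker.

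Of the other strand little was seen at these loci. Mir338 had 1 opposite-strand count in pup 2 and 2 in pup 1, 0.426% (exact binomial 95% interval 0.0108% to 2.35%) and 0.466% (0.0565% to 1.67%) of its counts. Mir3065 is annotated on that strand and has no row of its own here, like Gm5441 opposite Mir153. The remaining 8 measured members had no opposite-strand count in either library.

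The genes nearest to each member in log2(CPM + 1) over the 2 libraries mark its level, since a pattern over 2 libraries holds little else. They were Mir340 and Mir362 for Mir338, Mir668 and Mir701 for Mir137, Mir490 and Mir1981 for Mir138-2, Mir3074-1 and Mir452 for Mir138-1, and Mir7-1 and Mir450-2 for Mir128-1. For Mir153 the nearest was Mir219a-1, at a distance of 0.357, with Mir194-1 next, and for Mir128-2 they were Mir504 and Mir7-2.

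The seed of miR-128-3p was also found, shifted by 1 base to positions 3 to 9, in both miR-27 strands, which are shown with those bases in capitals.
miR-27a-3p: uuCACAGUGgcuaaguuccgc
miR-27b-3p: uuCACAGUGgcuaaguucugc
All 6 seeds were searched, on the strand given, in the first 10 bases of the 1738 mature entries. CACAGUG was found in 4 entries outside the members, CUUUGGU of miR-9-5p in 1 entry, and the other 4 seeds in none. Mir27b had 2207 CPM in pup 2 and 2324 CPM in pup 1, and Mir27a had 451 CPM in pup 2 and 452 CPM in pup 1. Mir27b was thus 72.3-fold above the Mir128 genes together in pup 2 and 103-fold in pup 1, again with Mir128 counted through separable reads only.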

How the data were processed

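MicroRNA-seq libraries of 2 newborn bladders were used, each with a table of whole-number counts per gene that the authors deposited without normalization or pooling. Per the README text deposited with the tables, the genome was mm10 and the annotation M4. Aligner and counter: not given in the sources used here. No table carries a header. The first count column equals the sum of the other 2 for every gene, and the column holding nearly all counts was read as the sense strand. Unmapped reads were 7.32% in pup 2 and 8.19% in pup 1 and reads matching several places 24.8% in pup 2 and 22.7% in pup 1; these and the other total lines stayed out of library sizes and tests.

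Symbols and positions came from GENCODE M21 on GRCm38 by Ensembl gene number, which matched 1894 of 1973 IDs. Versions in the text are those of the tables. For the test, TMM factors from edgeR 4.0.16 under R 4.3.3 scaled the library sizes, with a prior count of 0.5 in log2 ratios. The binomial test (scipy 1.17.1, Python 3.11.15) was tested on simulated data with counting noise only. Its calls under other variation between libraries were not tested. With 1 library on each side a quasi-likelihood test has no residual degree of freedom. The named genes are the members, their 2 nearest genes by level, genes on the opposite strand, and the leading genes of each list, of which those bearing on the members are given. In the neuroendocrine list 2 of 4 names matched a row. The sum of those 2, Mir375 and Mir7b, was 83.3 CPM (pup 2) and 30.0 CPM (pup 1). The names Mir7a-1 and Mir7a-2 found no row. Genes named Mir7-1 (26.1 CPM in pup 2, 22.4 CPM in pup 1) and Mir7-2 (1.37 CPM in pup 2, 0.536 CPM in pup 1) have rows and are not in that sum. The sum of striated muscle was 60.8 CPM (pup 2) and 85.9 CPM (pup 1). The members and lists were chosen with earlier results of these data known. Alternatives were other scalings (total counts, DESeq2 1.42.0 size factors), count minimums, strands, totals, detection limits, prior counts, edgeR's exact test with a common dispersion and each pup left out.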

Additional observations from a re-analysis of the deposited data

How the results depend on the processing

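Of 59 recomputed log2 ratios of members, 14 changed the prior count alone, which leaves the adjusted p as it was. Of the other 45 ratios 43 kept their direction and their side of the threshold, among them the 7 with edgeR's exact test. Those 7 say little about the threshold, as that test took its dispersion from the same 2 libraries as 1 group. Mir138-2 turned to -0.0019 with a minimum of 1 count, and Mir128-1 passed at an adjusted p of the exact binomial test of 0.0481 with a minimum of 100 counts, which tests fewer genes. That made 1 of 5 members called, against 121 of 248 genes (48.8%). Over all genes 117 to 125 differed by the binomial test, but 5 with edgeR's common dispersion. The split of higher in pup 2 against higher in pup 1 was 69 to 48 with TMM, 59 to 64 with total counts and 56 to 69 with DESeq2 size factors. The members' sum of 168 CPM became 353 CPM with Mir143 left out of the totals, 109.5 CPM with all reads as the total and 104 CPM without numbered copies. Left with 1 pup, it ran from 162 to 173 CPM, and detected members from 6 to 7 (17.8% and 18.0% of all genes). Of the 9 measured members 5 were detected at 10 CPM (12.2% of all genes), 7 at 0.1 CPM (18.8%), 7 with 1 count in either library (33.9%) and 6 on both strands (17.5%). No paired analysis was possible because the samples form 1 group. Over both libraries Mir153 had 38 and Mir128-2 had 10 counts in all, and Mir9-2 and Mir9-3 had 0. Whether depth or reads shared by copies lay behind these low counts was not tested.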
